A study of Homo sapiens with 4 samples.

Results

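The aldo-keto reductases are a superfamily of NADPH-dependent enzymes, and 9 of its human genes were listed for description: AKR1B10, AKR1B15, AKR1B1, AKR1A1, AKR1C1, AKR1C2, AKR1C3, AKR7A2 and AKR7A3. They were chosen by gene symbol in the array's platform annotation, with the difference between drug-treated and control cells already known, AKR1B10 being among the strongest falls. Their differences are therefore given as a description. How many of them passed the fit over all transcript clusters is given once, beside the share of all that passed, and supports nothing. Of the 9 genes, 7 had a named transcript cluster, 1 each, out of 21448 transcript clusters in all. Each transcript cluster pools the probes of a single gene locus. AKR1B1 and AKR1A1 were not analysed here.

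The cells were the human line SUIT2. They received either 30 µM fb-PMT, measured on 2 arrays, or phosphate-buffered saline as control, also on 2 arrays. The sample titles call the control cells untreated. RNA was taken after 24 h. fb-PMT is a thyroid hormone analogue, a polyethylene glycol conjugate of tetraiodothyroacetic acid, made to bind integrin αvβ3, and the study asked how it alters genes of cancer cell metabolism. Total RNA was measured on single-colour whole-transcript arrays, and nothing in the labels says whether the replicates came from separate cultures, so any p-value measures the spread between these arrays, which may be technical. SUIT2 is known to derive from pancreatic ductal adenocarcinoma, whereas the labels call the cells glioblastoma.

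Of 6 markers of duct-type epithelium, all but CDH1 lay above the negative control probe sets, whereas all 5 glioma markers (GFAP, OLIG2, SOX10, AQP4 and S100B) lay below their 95th percentile on all 4 arrays. That percentile, 7.15 and 7.29 on the fb-PMT arrays and 7.38 and 7.22 on the control arrays in log2 units, serves throughout as the background level. The array medians were 6.27 to 6.28. The correlation between replicate arrays, across transcript clusters, was 0.996 (fb-PMT) and 0.995 (control).

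Aldo-keto reductases reduce aldehydes and ketones to alcohols. The AKR1B branch acts on sugars, lipid aldehydes and retinaldehyde, the AKR1C branch mostly on steroid and prostaglandin ketones, and the AKR7A branch on small aldehydes such as succinic semialdehyde and those derived from aflatoxin. Several human members, AKR1B10 and AKR1C1 to AKR1C3 among them, are known targets of the transcription factor NRF2, which binds antioxidant response elements in DNA, and are often abundant in carcinoma cells.

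The 3 AKR1C genes lie side by side on chromosome 10, and the probe sets of all 3 gave higher values with the drug, so their start regions are shown first. The windows are those of RefSeq on GRCh38.p14, from 250 bases before to 50 bases after each annotated start, written 5′ to 3′ on the gene's strand. AKR1C3 has an upstream and a downstream start. Capitals mark the runs of at least 10 bases that all 4 windows share.
AKR1C1, chr10:4963165-4963464, plus strand: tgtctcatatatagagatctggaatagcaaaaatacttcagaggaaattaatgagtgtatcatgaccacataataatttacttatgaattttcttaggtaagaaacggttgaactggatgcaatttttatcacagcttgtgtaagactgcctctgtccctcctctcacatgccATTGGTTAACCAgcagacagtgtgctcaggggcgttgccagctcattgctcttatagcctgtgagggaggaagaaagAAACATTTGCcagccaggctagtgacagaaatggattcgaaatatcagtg
AKR1C2, chr10:5003808-5004107, minus strand: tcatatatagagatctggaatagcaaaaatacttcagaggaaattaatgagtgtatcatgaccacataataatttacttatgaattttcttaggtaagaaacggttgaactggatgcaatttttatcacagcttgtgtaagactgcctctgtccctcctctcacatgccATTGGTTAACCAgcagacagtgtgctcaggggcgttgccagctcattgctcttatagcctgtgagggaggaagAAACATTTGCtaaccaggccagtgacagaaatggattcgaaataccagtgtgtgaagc
AKR1C3 upstream start, chr10:5048531-5048830, plus strand: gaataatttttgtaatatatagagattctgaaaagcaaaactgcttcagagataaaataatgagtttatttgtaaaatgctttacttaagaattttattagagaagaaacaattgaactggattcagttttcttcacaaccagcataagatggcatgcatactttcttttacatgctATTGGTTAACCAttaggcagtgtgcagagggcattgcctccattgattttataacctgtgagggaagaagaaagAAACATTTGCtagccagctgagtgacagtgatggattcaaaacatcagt
AKR1C3 downstream start, chr10:5094164-5094463, plus strand: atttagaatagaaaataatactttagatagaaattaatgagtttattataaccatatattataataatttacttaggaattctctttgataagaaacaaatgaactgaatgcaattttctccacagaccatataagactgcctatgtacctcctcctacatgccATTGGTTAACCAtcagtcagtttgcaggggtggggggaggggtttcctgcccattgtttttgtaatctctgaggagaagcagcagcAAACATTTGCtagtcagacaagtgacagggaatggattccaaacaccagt

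The AKR1C1 and AKR1C2 windows were 93.5% identical over their alignment, and the other pairs 66.5% to 73.5%. The shared run ATTGGTTAACCA begins 77 bases before the start in AKR1C1, 81 in AKR1C2, and 73 and 86 before the upstream and downstream starts of AKR1C3. It occurs, on either strand, in 5 of 35116 RefSeq promoter windows (0.0142%), counting the AKR1C windows in which it was found. It contains ATTGG, the reverse strand of the CCAAT box, which 34.6% of all windows hold on one strand or the other. The other shared run, AAACATTTGC, spans the start or begins at or just after it. That run is found in 42 windows (0.12%), again counting the AKR1C windows.

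The core of the antioxidant response element, searched as TGACNNNGC on both strands, had 0 matches in the 4 AKR1C windows, and 13.3% of all windows hold it. The AP-1 motif TGANTCA, on both strands, also had 0 matches there, against 7.71% of all windows. In each of the 2 overlapping AKR7A2 windows TGACNNNGC matched 3 times, and the single AKR7A3 window had 0 matches. AKR1B10 and AKR1B15 had no window in the set used, so they were not searched. A count of 0 says only that these letters are not in the window.

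**Figure D1:**
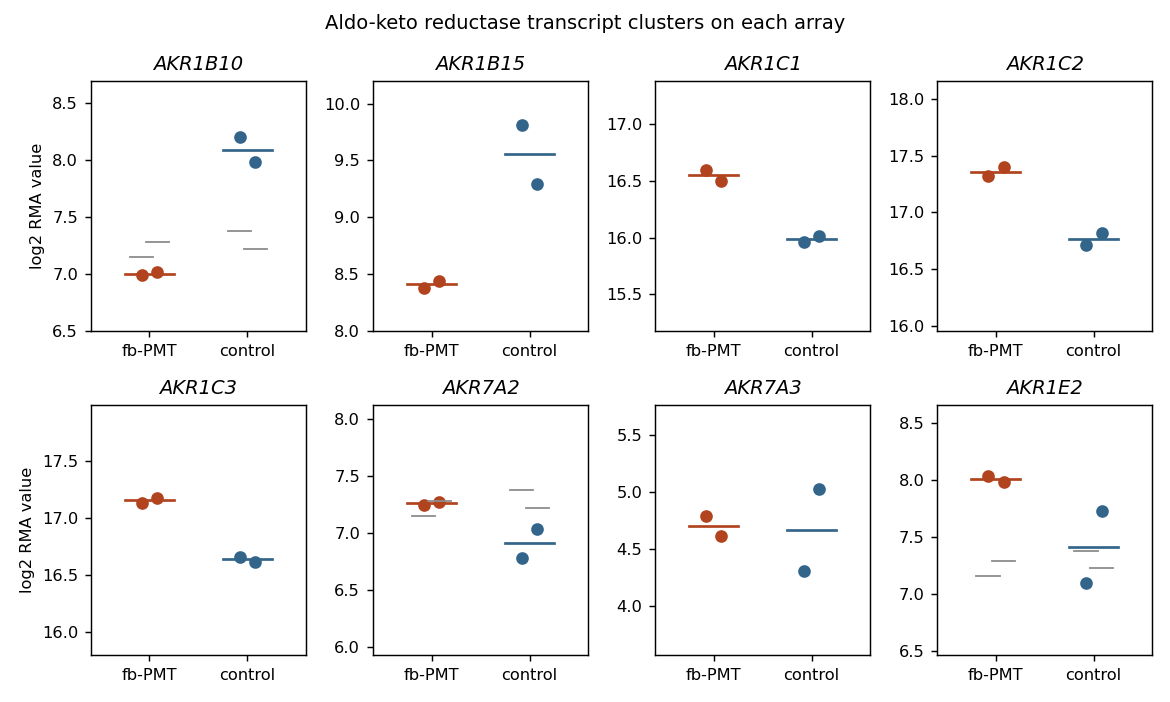
Log2 RMA values (y axis, each panel spanning the same range of log2 units) on the 2 fb-PMT arrays (left) and the 2 control arrays (right) for the 7 measured members and the related gene AKR1E2. Points are arrays, coloured lines group means, and short grey lines each array's 95th percentile of negative controls where it falls in the panel: AKR1B10 and AKR1B15 are lower, and AKR1C1, AKR1C2 and AKR1C3 higher, on both fb-PMT arrays than on either control array.

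The AKR1B genes measured were both lower with fb-PMT. AKR1B10 reduces retinaldehyde and dietary and lipid-derived aldehydes, and its log2 values were 6.99 and 7.02 on the fb-PMT arrays, against 8.20 and 7.98 on the control arrays. The fb-PMT arrays lay below both control arrays and below the negative control percentile, while the control arrays lay above it. The mean was 7.004 ± 0.02 with fb-PMT and 8.09 ± 0.15 in control cells (SD, n = 2 each), a log2 difference of -1.09 (limma standard error, SE, 0.16). Because the fb-PMT level is below background, only a bound can be given, and AKR1B10 was at least 1.83-fold lower.

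AKR1B15, its closest paralogue and its immediate neighbour on chromosome 7, had log2 values of 8.38 and 8.44 with fb-PMT, against 9.81 and 9.29 in control cells. All 4 values were above the negative controls, and the control arrays were farther from each other than the fb-PMT arrays were. The mean was 8.41 ± 0.04 with fb-PMT and 9.55 ± 0.37 in control cells (SD, n = 2 each), a log2 difference of -1.14 (SE 0.21) or 2.2-fold lower. Taken array by array, the 4 differences lay between -1.43 and -0.85. AKR1B10 and AKR1B15 are closely related in sequence, and how far the probes of each respond to the other's transcript was not tested. Their values are therefore uncertain as separate measurements.

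Ordered by measured difference, AKR1B15 was the 25th lowest of 21448 transcript clusters. AKR1B10 is given no rank, since its fb-PMT level is below background. AKR1B1, which encodes aldose reductase, the first enzyme of the polyol pathway, could not be set beside them.

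The 3 AKR1C probe sets were higher with fb-PMT, by nearly the same amount. AKR1C1, which inactivates progesterone, had log2 values of 16.59 and 16.50 with fb-PMT, against 15.96 and 16.01 in control cells. Its groups did not overlap, and the mean of 16.55 ± 0.06 with fb-PMT and 15.99 ± 0.04 in control cells (SD, n = 2 each) gave a log2 difference of 0.56 (SE 0.15), or 1.47-fold.

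AKR1C2, which inactivates dihydrotestosterone, had log2 values of 17.32 and 17.40 with fb-PMT, against 16.71 and 16.82 in control cells. The mean was 17.36 ± 0.05 with fb-PMT and 16.77 ± 0.08 in control cells (SD, n = 2 each), a log2 difference of 0.59 (SE 0.15) or 1.51-fold. AKR1C3, which forms testosterone from androstenedione and prostaglandin F from its precursors, had log2 values of 17.13 and 17.18 with fb-PMT, against 16.66 and 16.62 in control cells. Its groups did not overlap either. The mean was 17.15 ± 0.03 with fb-PMT and 16.64 ± 0.03 in control cells (SD, n = 2 each), a log2 difference of 0.52 (SE 0.14) or 1.43-fold. Over the 3 genes, the array-by-array differences lay between 0.47 and 0.68.

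AKR1C1, AKR1C2 and AKR1C3 share most of their coding sequence, and cross-hybridisation between them was not tested, so whether 1, 2 or all 3 transcripts were higher cannot be told from these values. They were also among the brightest probe sets of the array, at brightness ranks 97, 30 and 44 of 21448 by mean log2 value. The brightest transcript cluster reached 17.8 to 18.0 on the 4 arrays, and whether the signal is compressed near that end was not tested. Among the 214 brightest transcript clusters (1%), AKR1C2 had the 3rd, AKR1C1 the 4th and AKR1C3 the 6th highest difference, behind or beside B2M (0.93), MMP7 (0.67) and ERRFI1 (0.52), which were picked out after seeing their values. These 6 were the only ones of the 214 that were higher by at least 0.5, or 2.8%, against 4.68% of all transcript clusters. Replicates of bright probe sets lay closer together: the median within-group SD was 0.05 for the 214 and 0.17 over all transcript clusters.

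**Figure D2:**
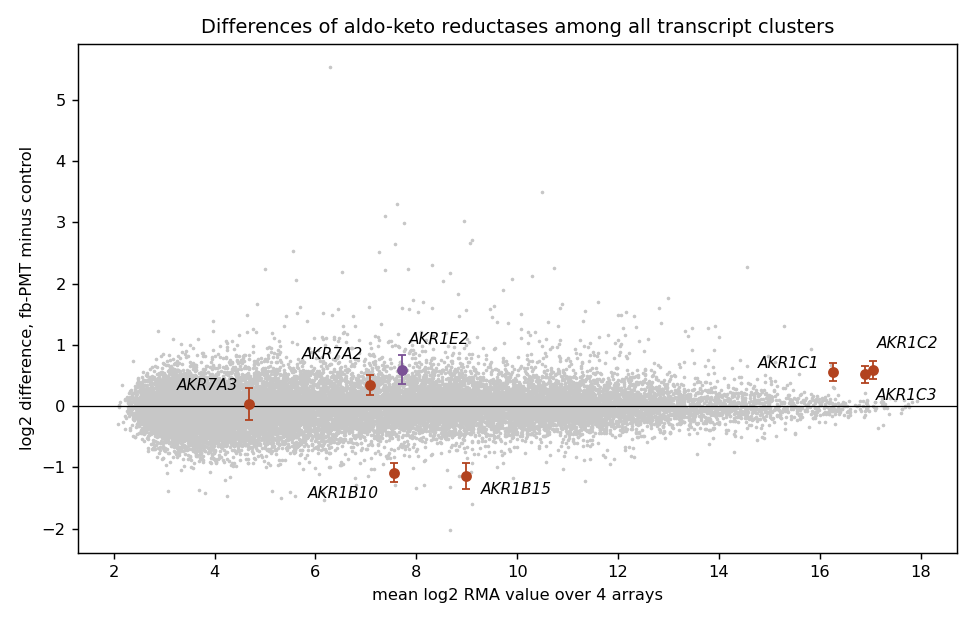
Log2 difference (fb-PMT minus control, y axis) against the mean log2 RMA value over the 4 arrays (x axis) for all 21448 transcript clusters (grey), with the 7 members (red) and AKR1E2 (purple); bars are limma standard errors. AKR1C1, AKR1C2 and AKR1C3 sit at the bright end, where most differences are close to 0, and AKR1B10 and AKR1B15 at the lower edge of the middle range.

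The AKR7A genes were dim. AKR7A2, which reduces succinic semialdehyde and aflatoxin dialdehyde, had log2 values of 7.25 and 7.28 with fb-PMT, against 6.78 and 7.04 in control cells. The control arrays were below the negative control percentile, and of the fb-PMT arrays replicate 1 was above it and replicate 2 below, so no fold is given for its log2 difference of 0.35 (SE 0.16). AKR7A3, the related aflatoxin aldehyde reductase, had log2 values of 4.79 and 4.61 with fb-PMT, against 4.31 and 5.03 in control cells, all below the negative controls. Its groups overlapped, and its log2 difference of 0.04 (SE 0.26) took either sign when 1 array was left out (-0.33 to 0.40).

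In all, the groups did not overlap for 6 of the 7 members. The fb-PMT arrays were the higher ones for 4 members, as for 20.2% of all transcript clusters, and the lower ones for 2, as for 22.3%. In limma's test with Benjamini-Hochberg adjustment over all transcript clusters, 0 of the 7 passed an adjusted p of 0.05, against 0.0979% of all transcript clusters higher and 0% lower. At an unadjusted p under 0.05 there were 5 of 7 members, and 11.2% of all. With a variance allowed to follow brightness (an intensity trend) 5 of 7 passed (AKR1C1, AKR1C2 and AKR1C3 higher, AKR1B10 and AKR1B15 lower), against 1.37% of all transcript clusters higher and 0.513% lower. Tested among the 9199 transcript clusters above the negative controls on both arrays of at least 1 group, AKR1B10 and AKR1B15 passed as lower and AKR1C2 as higher, against 0.902% of those transcript clusters lower and 2.55% higher. AKR1B10 met that filter only through its control arrays, so its call there depends on the difference itself. As the members were chosen with this contrast known, nothing is read from these counts. The median log2 difference of the 7 was 0.35, which is the value of AKR7A2, a gene near background, beside -0.02 over all transcript clusters.

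Of 7 other members of the superfamily with a named transcript cluster, AKR1E2 alone was above the negative controls on any array. AKR1E2, an anhydrofructose reductase that lies beside the AKR1C genes, had log2 values of 8.03 and 7.98 with fb-PMT, against 7.09 and 7.73 in control cells. Control replicate 1 was below background and the others above it. Its log2 difference was 0.60 (SE 0.24, limma adjusted p = 0.446), which did not pass.

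The 6 below background on all 4 arrays were AKR1C4, the AKR1C form typical of liver, AKR1D1, a steroid reductase of bile acid synthesis, AKR1C8, and the potassium channel beta subunits KCNAB1, KCNAB2 and KCNAB3. Their measured differences of -0.15 to 0.28 have no fold.

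The differences were next followed along the chromosomes, in the gene order of RefSeq. On chromosome 7 the nearest measured genes on either side of AKR1B10 and AKR1B15 were SLC35B4, a nucleotide sugar transporter, at 0.19 (SE 0.22) and BPGM, which makes bisphosphoglycerate, at 0.23 (SE 0.18), both with overlapping groups. Of the 5 measured genes on each side, the other values ran from -0.26 (CALD1) to 0.30 (PLXNA4), apart from TMEM140, the fifth gene on the BPGM side. TMEM140 had log2 values of 7.23 and 7.24 with fb-PMT, against 5.21 and 6.08 in control cells, where both values were below the negative controls (limma adjusted p = 0.211). Its fb-PMT replicate 2 was also below them, and fb-PMT replicate 1 above.

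On chromosome 10, AKR1E2, AKR1C1, AKR1C2 and AKR1C3 follow each other with log2 differences of 0.60 (SE 0.24), 0.56, 0.59 and 0.52. AKR1E2 was below background on control replicate 1. The AKR1C values may not be separate measurements, as cross-hybridisation was not tested. AKR1C8 and AKR1C4, next in order, were below background. The flanking gene KLF6, a zinc finger transcription factor, was at 0.42 (SE 0.15), PITRM1 at -0.10 and NET1 at -0.05. The AKR7A pair on chromosome 1 lies between MRTO4 at -0.44 (SE 0.24) and SLC66A1 at 0.23 (SE 0.15). Farther out on the MRTO4 side, IFFO2 was at -0.91 (SE 0.23, limma adjusted p = 0.306). Its values were below background on both fb-PMT arrays and on control replicate 1. None of the neighbours passed limma's test.

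**Figure D3:**
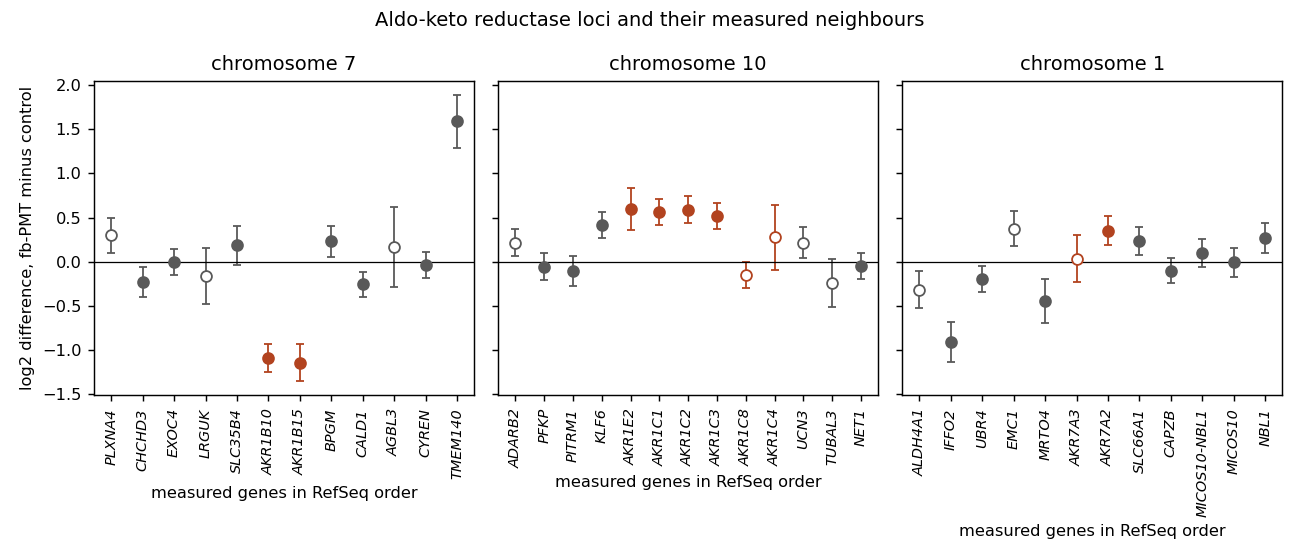
Log2 difference (fb-PMT minus control, y axis) with its limma standard error for aldo-keto reductases (red) and measured neighbours (grey) in RefSeq gene order, not to genomic scale (x axis); open circles mark genes below background in both groups. AKR1B10 and AKR1B15 stand at about -1.1 between neighbours near 0. AKR1E2 to AKR1C3 lie at 0.52 to 0.60, where cross-hybridisation between the AKR1C genes was not tested.

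The genes whose pattern over the 4 arrays was most like that of AKR1B10, by Euclidean distance between values centred on each gene's mean, were PPP2R2B (0.07), SLC9A2 (0.10), KRT7 (0.15), FABP3 (0.15) and ZNF606 (0.17). AKR1B15 was 8th of 17708 named transcript clusters, at 0.22. With 2 arrays per group this distance mostly follows the group difference, so it picks out other transcript clusters with a similar fall and shows no further likeness. AKR1B10 was below background on the fb-PMT arrays, so its distances are uncertain. KRT7, a keratin of duct epithelium, had log2 values of 11.34 and 11.37 with fb-PMT, against 12.44 and 12.17 in control cells, a log2 difference of -0.95 (SE 0.17). PPP2R2B, a regulatory subunit of protein phosphatase 2A, was at -1.05 (SE 0.16), and SLC9A2, a sodium-proton exchanger, at -1.08 (SE 0.16). FABP3 and ZNF606 were below background in both groups. Of the 6 duct epithelium markers 4 were lower on both fb-PMT arrays (KRT7, KRT8, KRT18 and KRT19) and 2 higher (EPCAM and CDH1, the second below background). Over all transcript clusters, 22.3% were lower on both fb-PMT arrays and 20.2% higher, and nothing is read from the marker counts. The part of these markers in the AKR1B10 value was not tested. In bulk RNA, fewer cells of a type and less RNA per cell cannot be told apart.

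Other genes of the NRF2 pathway lay on both sides of 0. Of 29 measured genes on the list (23 targets and 6 regulators, the aldo-keto reductases left out), 16 were higher and 13 lower, and 0 passed in limma's test, against 0.0979% of all transcript clusters. At an unadjusted p under 0.05 there were 3 of 29, near the 11.2% of all. The median log2 difference of the targets was 0.003, beside -0.02 over all transcript clusters.

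NFE2L2, the gene of NRF2 itself, had log2 values of 11.71 and 11.57 with fb-PMT, against 11.61 and 11.89 in control cells, and KEAP1, its inhibitor, had 10.27 and 10.59 with fb-PMT, against 10.35 and 10.26 in control cells. The groups overlapped for both. Among classic targets, the quinone reductase gene NQO1 was at -0.03 (SE 0.15), the glutathione synthesis gene GCLM at -0.05 (SE 0.15) and the thioredoxin reductase gene TXNRD1 at 0.10 (SE 0.15), all with overlapping groups. SLC7A11, the cystine transporter, had log2 values of 10.20 and 9.86 with fb-PMT, against 10.27 and 10.69 in control cells (log2 difference -0.45, SE 0.22, limma adjusted p = 0.514).

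The largest differences on the NRF2 list were those of GPX2, a glutathione peroxidase of gut epithelium, and OSGIN1, an oxidative stress response gene. GPX2 had log2 values of 8.89 and 8.73 with fb-PMT, against 6.94 and 7.20 in control cells, the control values being below the negative controls (at least 2.85-fold higher, limma adjusted p = 0.0577). OSGIN1 had log2 values of 7.33 and 7.19 with fb-PMT, against 7.66 and 7.78 in control cells (limma adjusted p = 0.392). Its fb-PMT replicate 2 was below the negative controls.

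Enzymes that share substrates with the aldo-keto reductases were described by lists. Of 21 measured carbonyl and enone reductases of other families, 11 were higher and 10 lower, with a median of 0.19. PECR, a peroxisomal enoyl reductase, had log2 values of 10.48 and 10.54 with fb-PMT, against 9.82 and 9.93 in control cells (log2 difference 0.63, SE 0.15, limma adjusted p = 0.279). TP53I3, a quinone oxidoreductase, was at 0.38 (SE 0.20). CBR1, the main cytosolic carbonyl reductase, named after its value was seen, was at -0.07 (SE 0.15).

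Of 19 measured aldehyde dehydrogenases, which oxidise the aldehydes that aldo-keto reductases reduce, 9 were higher and 10 lower, with a median of -0.05. Below background on all 4 arrays were 8 of the 19, and all of those but ALDH3B2 (0.08) were among the lower genes. The counts and the median therefore include values at background level. ALDH1A3, which oxidises retinaldehyde to retinoic acid, had log2 values of 14.02 and 13.82 with fb-PMT, against 12.97 and 13.05 in control cells. This was a log2 difference of 0.91 (SE 0.16, limma adjusted p = 0.186), higher on both arrays. ALDH3A1, which detoxifies lipid aldehydes, had log2 values of 9.65 and 9.72 with fb-PMT, against 8.93 and 9.04 in control cells (log2 difference 0.69, SE 0.15, limma adjusted p = 0.255).

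The other genes of retinaldehyde metabolism were mostly dim: of 13 measured, 9 lay below background on all 4 arrays, CYP26A1, the retinoic acid hydroxylase, among them. RDH10, which forms retinaldehyde from retinol, had log2 values of 12.66 and 12.63 with fb-PMT, against 12.16 and 12.12 in control cells (log2 difference 0.50, SE 0.14, limma adjusted p = 0.355). RBP4, the plasma retinol carrier, was at -0.59 (SE 0.24).

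In steroid and prostaglandin metabolism, where the AKR1C enzymes act, 18 of 29 measured genes were higher and 11 lower, with a median of 0.10. Below background on all 4 arrays were 17 of the 29, including every lower gene but PTGES3 (-0.08). HSD17B7, which acts in cholesterol and estrogen synthesis, was at 0.45 (SE 0.14) and PTGES, the inducible prostaglandin E synthase, at 0.35 (SE 0.19). Of 9 measured genes of the polyol pathway and osmotic response 7 were higher and 2 lower, with a median of 0.12, the taurine transporter gene SLC6A6 at 0.43 (SE 0.18) and HAGH, a glyoxalase, at 0.26 (SE 0.17). In these 5 lists 0 genes passed limma's test over all transcript clusters, against 0.0979% of all. At an unadjusted p under 0.05 there were 3 of 21, 4 of 19, 3 of 13, 3 of 29 and 0 of 9 in the order given here, against 11.2% of all.

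**Figure D4:**
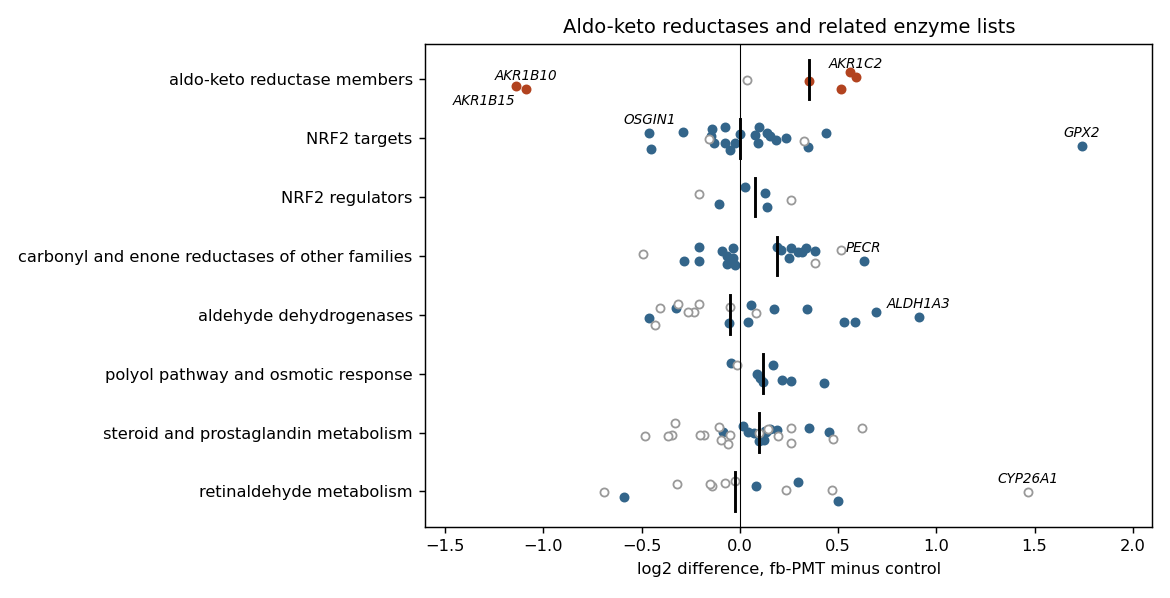
Log2 difference (fb-PMT minus control, x axis) of each transcript cluster in the aldo-keto reductases (red) and 7 related lists (blue); open circles mark genes below background in both groups and vertical bars are list medians. AKR1B10 and AKR1B15 lie apart at -1.09 and -1.14, and the NRF2 targets lie on both sides of 0, with GPX2 at 1.74.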

How the data were processed

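Per the submitters' processing notes, the values the authors deposited come from RMA, run in Transcriptome Analysis Console 4.0.1.36. The range of the deposited values is that of a log2 scale. RMA in general corrects background, normalizes the arrays to each other, which removes a shift common to most genes, and summarises the probes of each probe set. The genome build is not given in the sources used here. The 2903 control probe sets were left out. Of 21448 transcript clusters, the platform annotation gave 1 symbol for 17709, several for 0 and none for 3739.

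The difference was estimated for every transcript cluster using limma 3.58.1 under R 4.3.3 (no covariate, no intensity trend), fb-PMT minus control, two-sided, with Benjamini-Hochberg adjustment over all of them. The fit was tested on simulated data with known changes. Changes as small as those of the AKR1C genes were not simulated, so whether the fit would find them was not tested. The standard error of the log2 differences had a median of 0.18, so 2 arrays per group limit the precision. Folds against a group below the 95th percentile of the 612 negative controls are bounds.

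Members and lists were chosen with earlier results of these data known. Named besides the members are the other aldo-keto reductases, the 5 genes most like AKR1B10, and from each list the genes past the threshold or otherwise the 2 with the largest difference above background. NFE2L2, KEAP1, NQO1, GCLM, TXNRD1 and SLC7A11 are always given, and chromosome neighbours by position.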

Additional observations from a re-analysis of the deposited data

How the results depend on the processing

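The log2 differences of all 7 members moved by less than the spread between replicates under quantile normalization and under median centring. A replicate block and array weights left them as they were, as they must with 2 arrays per group, and show nothing about stability. AKR7A3 alone changed sign, with 1 array left out. With 1 array left out, AKR1B10 ran from -1.20 to -0.98, AKR1B15 from -1.40 to -0.88 and the AKR1C genes from 0.50 to 0.65. The number of transcript clusters past the threshold, 21, was 403 with an intensity trend, 394 with robust variances as well, 67 without the lowest 30%, 318 with only those above the negative controls, 44 with only those of 1 symbol, 73 at an adjusted p of 0.1, and 1 to 9 with 1 array left out (9 without control replicate 1, 5 without control replicate 2, 1 without either fb-PMT array). Members past it numbered 0, but 5 with the trend, 5 with robust variances and 3 above the negative controls (AKR1B10, AKR1B15 and AKR1C2). The call of AKR1B10 with the negative control filter depends on the difference itself, as it met that filter only through its control arrays. On the NRF2 list the count of 0 became 2 with the trend, 1 with robust variances, and 1 under each of the filters and at 0.1. The gene that passed at 0.1 was GPX2. GPX2 met the negative control filter only through its fb-PMT arrays, so a call of GPX2 there depends on the difference itself. With the replicate number as a block 1 transcript cluster passed, 0 of them members and 0 on the NRF2 list. Same-numbered arrays did not deviate together (r = 0.04), but with 2 arrays per group this cannot tell whether the samples were paired. Dim probe sets, AKR7A2 and AKR7A3 here, have no usable fold.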
